A study of Chlamydomonas reinhardtii with 4 samples.

Results

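RNA of Chlamydomonas reinhardtii cells kept for 96 h without nitrogen was compared with RNA of the same strain at time 0 on 1 two-colour array. The array carried 14557 gene models with 3 probes each, and 11774 of them were measured, which means that at least 1 probe was well above background in either channel. A model is called here by its number on the array or its RefSeq locus. Its value was the median over measured probes of log2 of the Cy5 signal, from starved cells, over the Cy3 signal, from time 0 cells. Of the measured models 4856 were read by 3 probes, 3615 by 2 and 3303 by 1.

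The study followed this unicellular green alga, wild type cc3491, under constant light in Tris-acetate-phosphate (TAP) medium that lacked nitrogen. The array at 96 h is the last of 4, the others being from 24, 48 and 72 h, and each of them put starved cells in Cy5 and time 0 cells in Cy3. The time 0 cells came from cultures in early stationary phase in complete medium and had not gone through the washes and the change of medium, so the effect of these steps and of nitrogen loss cannot be told apart. The design names 3 biological replicates and calls the samples pooled, so each time is 1 array and no spread between cultures is known. The dyes were not swapped, so a dye effect cannot be told apart from a change. No p-value stands behind any difference between 96 h and time 0.

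C. reinhardtii takes up ammonium through AMT transporters and fixes it by glutamine synthetase, and it reduces nitrate by nitrate and nitrite reductase when ammonium is absent. Cells that run out of nitrogen stop dividing, can turn into gametes, take apart some of their photosynthetic machinery and store carbon. A separate set of genes, the carbon concentrating mechanism, is known for bringing bicarbonate to the chloroplast when carbon dioxide is scarce.

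The 3 probes of a model are the only technical check of a value, and for some models they are not independent. Sequences of all 3 probes could be read for 1503 models in the study's probe list, and in 538 of them probes 1 and 2 had a run of 40 or more bases in common. The probes of LCI1, CYCB1.a and model 145123 are shown because a late result rests on them. Capitals mark the bases that probes 1 and 2 share.
LCI1 probe 1: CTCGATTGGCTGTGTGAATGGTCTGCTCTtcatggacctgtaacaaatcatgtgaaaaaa
LCI1 probe 2: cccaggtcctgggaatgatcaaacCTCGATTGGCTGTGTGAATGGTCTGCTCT
LCI1 probe 3: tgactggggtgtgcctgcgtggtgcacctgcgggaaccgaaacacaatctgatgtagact
CYCB1.a probe 1: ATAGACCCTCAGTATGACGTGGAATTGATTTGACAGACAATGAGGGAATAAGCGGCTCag
CYCB1.a probe 2: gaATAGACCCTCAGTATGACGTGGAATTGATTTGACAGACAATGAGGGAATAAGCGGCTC
145123 probe 1: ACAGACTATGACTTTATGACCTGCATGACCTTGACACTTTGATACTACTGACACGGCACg
145123 probe 2: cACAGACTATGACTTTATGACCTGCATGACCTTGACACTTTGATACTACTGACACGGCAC
145123 probe 3: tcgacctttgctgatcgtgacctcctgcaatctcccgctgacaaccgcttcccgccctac

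On the 96 h array 24791 probes were well above background in starved cells and 18967 at time 0. The SD of the log2 ratio over 3 probes had a median of 0.37, with a 10th percentile of 0.09 and a 90th of 1.03. The time 0 signal, measured on all 4 arrays, varied less. Over 7069 models with no dim probe at time 0 its SD across arrays had a median of 0.07 on the log2 scale, and 12 bright probes spotted 7 times on the 96 h array had SDs between 0.04 and 0.27. Signals near background carry surrogate values set by the scanner software, and a ratio against them can be too high or too low. At the earlier times the same probes were used with the deposited ratio, which is 0 for a probe where neither channel had significant signal. A model value of 0.00 there comes from such a probe and does not mean equal signals. Where it matters a bound is therefore given against the lowest signal well above background, 38.7 in Cy5 and 79.9 in Cy3.

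At 96 h 1712 models (14.5%) were at least 2-fold higher than at time 0 and 1303 (11.1%) at least 2-fold lower. Past 4-fold there were 318 higher and 478 lower models. Dim spots lay mostly on the higher side, since 716 higher and 98 lower models had no probe above background in both channels. With probes above background in both channels only, the counts were 868 higher (9.17%) and 1255 lower (13.3%) of 9468, so that 40.9% of changed models were higher, against 56.8% with all measured probes. The split moved with the scaling too, to 46.4% after centring on the median of all models, which stood at 0.16, and to 36.1% after normexp and loess. In 8471 models with at least 2 measured probes, all probes passed 2-fold in the same direction in 591 higher (6.98%) and 657 lower (7.76%) models.

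**Figure D1:**
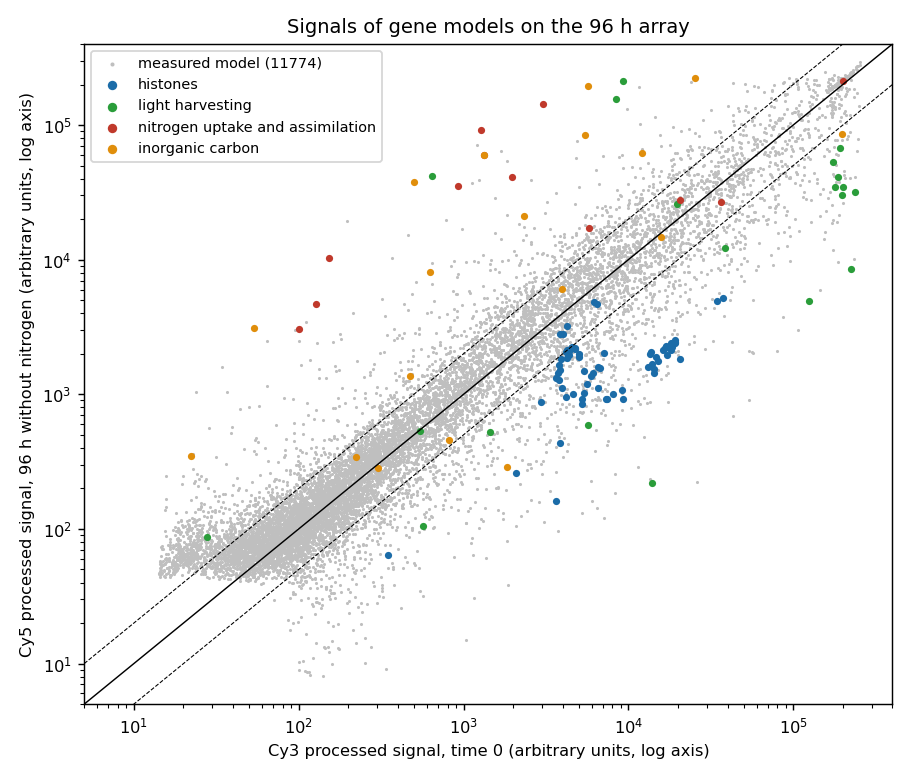
Cy5 signal at 96 h without nitrogen (y axis) against Cy3 signal at time 0 (x axis) of 11774 models, both in arbitrary units on log axes, with the line of equal signal, dashed lines at 2-fold and 4 gene lists in colour. Nitrogen genes lie mostly above the lines, while 65 of 72 histone models lie below the lower one.

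The gene lists below hold models that the study named in its text and tables. Many of these names come from tables of models that the study selected on these same samples, and of 298 measured models in them 31.9% were past 2-fold higher and 63.4% lower at 96 h. Counts over such lists are not independent evidence of a direction. Of 643 measured models named only elsewhere, 14.8% were higher and 14.2% lower, close to the shares over all models. For most of the longer lists the members outside the nitrogen tables are therefore given too. A symbol found only in those tables is written as "listed as", because 18 of 45 models compared had another symbol in a second table.

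**Figure D2:**
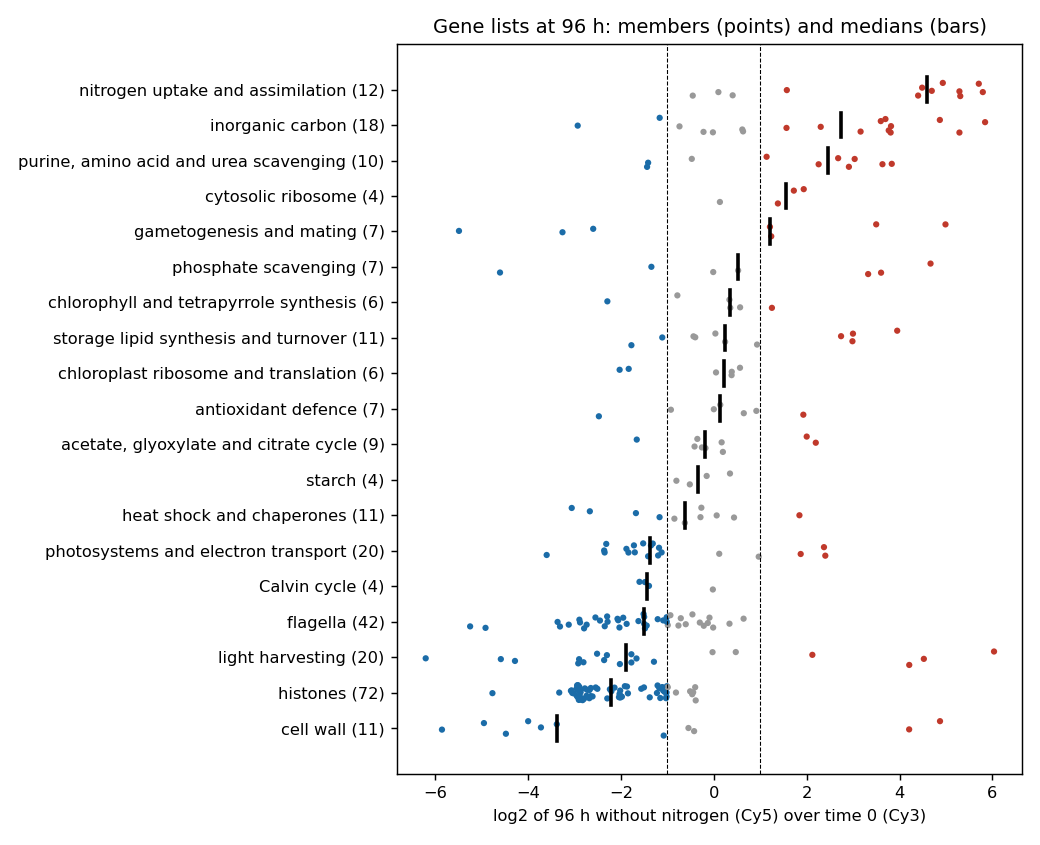
Log2 of 96 h without nitrogen over time 0 (x axis) for the members of each gene list, with points red past 2-fold higher, blue past 2-fold lower and grey between, and a black bar at the median of each list. Nitrogen uptake and assimilation has the highest median, 4.59, and cell wall the lowest, -3.39.

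Genes of nitrogen uptake and assimilation were still among the strongest responses at this last time. Of 12 measured members 9 were past 2-fold higher and 0 lower, with a median log2 ratio of 4.59 (median 0.16 over all models). In the nitrogen tables are 11 of them, and the other, the nitrite transporter NAR1.3 (194337), stood at -0.46. Glutamine synthetase joins ammonium to glutamate, and its genes differed. GLN3 (CHLRE_12g530600v5) had Cy5 signals of 70503, 103180 and 91654 in probes 1 to 3 at 96 h, against Cy3 signals of 1270, 3589 and 1107 at time 0, a log2 ratio of 5.79 (55.5-fold). All 3 probes were far apart between the channels. The model listed as GLN1 (133971) stood at 0.40, and every probe of that listed as GLN2 (129468) was saturated in both channels, so it has no fold.

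Among ammonium transporters, the model listed as AMT4 (CHLRE_13g569850v5) was 52.3-fold higher and AMT1A (CHLRE_03g159254v5) 25.9-fold higher. The AMT1A value is that of probe 1, which was saturated in Cy5, and its other probes stood at 5.55 and 3.1. The nitrate reductase, listed as NIT1 (CHLRE_09g410950v5), had Cy5 signals of 2844 and 3288, against Cy3 signals of 95.5 and 105, and only the second of these Cy3 signals was well above background. The nitrite reductase, listed as NII1 (CHLRE_09g410750v5), was 21.1-fold higher. Both of its measured probes agreed, at 4.42 and 4.38. NAR2 (CHLRE_09g410900v5), a partner protein of nitrate transport, was 39.6-fold higher. The model at locus CHLRE_09g410850v5, which lies between those of NII1 and NAR2 in gene order, was 52.9-fold higher. It has no symbol here, but the paper gives this locus as that of a nitrate transporter. The regulator listed as NIT2 was 2.97-fold higher.

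Most of the 9 higher genes had reached their level before 96 h. GLN3 stood at 6.10, 5.98, 5.83 and 5.79 at 24, 48, 72 and 96 h, the model listed as AMT4 at 6.0, 5.85, 5.70 and 5.71, and NAR2 at 5.86, 5.83, 5.25 and 5.31. NIT1 stood at 4.97, 4.94, 4.53 and 4.93. The exceptions were NAR1.2, at 2.52, 3.32, 3.57 and 5.29, which is also counted among the inorganic carbon genes, and to a lesser degree model 188890, at 4.0, 3.90, 3.07 and 4.49. All 6 nitrogen markers (GLN3, AMT4, AMT1A, NIT1, NII1 and NAR2) were high in the starved channel, as its label says. All 4 arrays share the time 0 condition, so their ratios are not independent of each other.

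Genes for scavenging purines and amino acids, other sources of nitrogen, had 7 higher and 2 lower members of 10, and a median of 2.47. In the nitrogen tables are 8 of the 10. Only 4 members were past 2-fold higher from probes above background in both channels, with a median of 0.82. The model listed as urate oxidase UOX (183011) had Cy5 signals of 192568, 195303 and 157886, against Cy3 signals of 13514, 10562 and 11620, and was 14.2-fold higher. Its 3 probes agreed within 0.45 on the log2 scale. The 2 models listed as the permease UAPA3, which carries uric acid and xanthine, stood at 3.03 (165762) and 2.26 (169259). Most of their probes were dim at time 0, and by their bounds they were at least 4.78-fold and at least 1.65-fold higher, but the only probe of each that was above background in both channels stood at 0.49 and 0.28. The model listed as UAPA1 (128523) stood at -1.44, the value of a probe saturated at time 0. A second saturated probe of it stood at -0.44 and the unsaturated one at -4.16.

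Of 7 measured phosphate genes 3 were past 2-fold higher and 2 lower. PTB5 (196438), a sodium/phosphate symporter, stood at 0.11, 3.33, 4.38 and 4.67 at 24, 48, 72 and 96 h. Its probes disagreed, at 4.67, 6.59 and 0.75 at 96 h, and the second was not well above background at time 0. PTB3 (196465), which also carries the symbol PTB5, stood at 0.00, 0.57, 4.0 and 3.60, with probes at 4.08, 3.60 and 2.19 at 96 h. Its probe 2 was dim at time 0, and by its bound it was at least 5.52-fold higher. PTB2 (196464), at -0.63, 1.22, 2.38 and 0.52, was past 2-fold at 72 h and no longer at 96 h. The proton/phosphate symporter PTA3 (183357) was low throughout and stood at -4.61 at 96 h. This model also carries the symbol PTB3, and under that symbol the paper lists its number with a raised average over all times. The symbols of 183357 and 196465 are therefore uncertain. Of 2 models listed as the regulator PSR1, 196473 stood at 3.32 and 182560 at -1.35. Both were past 2-fold on every earlier array as well, 182560 at -2.84, -2.24 and -2.25.

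Photosynthesis genes were mostly lower after 96 h. In the light harvesting list 14 of 20 measured members were past 2-fold lower and 4 higher (median -1.90), and of photosystem and electron transport genes 15 of 20 were lower and 3 higher (median -1.39). Outside the nitrogen tables, 3 of 4 light harvesting and 6 of 8 photosystem members were lower. The photosystem list also counts as lower SIR1 (206159), at -1.20, a ferredoxin-sulfite reductase that the study groups with sulfur genes. LHCBM8 (205757), an antenna protein of photosystem II, had Cy5 signals of 576, 139 and 221 at 96 h, against Cy3 signals of 13855, 10280 and 55988 at time 0, a log2 ratio of -6.21 (74.0-fold lower). Among models with no probe saturated in both channels it was the lowest whose probes agreed. In such a ranking, agreed means that at least 2 probes were measured and all passed 2-fold in the same direction. The LHCBM8 probes themselves were spread, at -4.59, -6.21 and -7.99. LHCBM4 (191690) stood at -4.59 and the model listed as LHCBM5 (184775) at -4.29. In photosystem I, the antenna protein LHCA8 (CHLRE_06g272650v5) stood at -2.31, and the core subunits PSAO (193847) at -2.36 and PSAL (listed, 205940) at -2.32. Of 3 probes each, 2 were saturated at time 0 in LHCA8 and in PSAO. The LHCA8 value is that of the unsaturated probe, while the PSAO probes ran from -4.37, unsaturated, to -0.65, saturated. PETO (185971), a subunit of the cytochrome b6f complex, stood at -1.52, and the RNA-binding protein listed as NAB1 (CHLRE_06g268600v5), which represses antenna translation, at -1.29. Of 4 Calvin cycle models, all with a saturated probe, 3 were lower. Transketolase TRK1 (141319) stood at -1.49, the value of a probe saturated at time 0, with its unsaturated probes at -1.53 and -0.53.

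The LHCSR genes differed among themselves. LHCSR proteins are antenna relatives that dissipate excess light as heat. In LHCSR1 (CHLRE_08g365900v5) probes had Cy5 signals of 591, 1171 and 142, against Cy3 signals of 5717, 8216 and 357, and the model was 7.01-fold lower. It stood at -0.91, -0.89, -2.96 and -2.81 at 24, 48, 72 and 96 h. LHCSR3 (CHLRE_08g367400v5) stood at 3.26, 3.68, 4.58 and 4.52, and LHCSR2 (CHLRE_08g367500v5) at 2.65, 3.61, 3.73 and 4.21. The loci of LHCSR3 and LHCSR2 are next to each other in gene order, and whether a probe of one binds the other's transcript was not tested. Model 206001, listed as LHCA1, was 65.6-fold higher at 96 h, the highest ratio of all models whose probes agreed, with Cy5 signals of 47099 and 36302 against Cy3 signals of 792 and 501. It stood at 2.28, 2.85, 0.72 and 6.04. A second model, named LHCA1 (184471), stood at -1.78 from a probe saturated at time 0, so the symbol of 206001 is uncertain.

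Genes of inorganic carbon uptake were mostly higher, and several stood highest at 96 h. Of 18 measured members 11 were past 2-fold higher and 2 lower, with medians of 0.54, 0.18, 1.44 and 2.73 at 24, 48, 72 and 96 h. Of 7 members absent from the nitrogen tables, 3 were higher (median 0.63). A chloroplast envelope protein induced by low CO2, listed as CCP2 (128766), stood at 0.49, 0.71, 2.69 and 5.84. It was at least 37.5-fold higher at 96 h by its bound, with 1 probe saturated in Cy5 and 2 dim at time 0. The saturated one, probe 1, was bright at time 0 and already stood at 2.55, 2.97 and 3.55 before 5.09 at 96 h. Its Cy3 signal was 6612 on the 96 h array and at most 1750 on the others. CCP1 (189430), a relative of CCP2, stood at 0.58, 0.00, 3.99 and 4.87. NAR1.2 (135648), also known as the bicarbonate channel LCIA, stood at 2.52, 3.32, 3.57 and 5.29. HLA3 (134058), an ABC transporter for bicarbonate, stood at 0.00, 0.00, 2.91 and 3.77. Its 3 probes disagreed, at -0.83, 0.00 and 0.32 at 24 h, at -1.83, 0.00 and 1.71 at 48 h and at 3.77, 6.25 and 2.51 at 96 h, where the first was saturated in Cy5. LCR1 (205566), a regulator of low-CO2 genes, stood at 0.46, 0.07, 1.90 and 3.60. Against these, the periplasmic carbonic anhydrase CAH1 (24120) stood at -0.02 at 96 h. A model listed as LCI6 (184094) stood at 4.21, 4.53, 0.97 and 1.56, highest early. Another model listed as LCI6 (183315) went the other way, at -1.61, -2.19, -2.27 and -2.93. At 96 h 1 of 3 probes was saturated in Cy5 in each of CCP1, NAR1.2, HLA3, LHCSR2 and LHCSR3.

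LCI1 (55019), a membrane protein of inorganic carbon uptake, depended on the probe. Probes 1 and 2, which share 29 bases, had Cy5 signals of 373 and 313, against Cy3 signals of 19.4 and 22.2 that were not well above background. Probe 3, above background in both channels, had a Cy5 signal of 350 against a Cy3 signal of 321, a log2 ratio of 0.13. The median was at least 3.92-fold higher by its bound.

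For several of these genes the time 0 channel itself was higher on the 96 h array than on the other arrays. In units of each array's 75th percentile of signal, CCP1 had a starved signal of 0.0684, 0.0214, 1.35 and 137 on the 24, 48, 72 and 96 h arrays, and a time 0 signal of 0.0362, 0.0433, 0.082 and 8.69. Its 3 probes had Cy3 signals of 5460, 6827 and 2874 on the 96 h array, against at most 329, 50.3 and 50.8 on the others. LHCSR3 had a starved signal of 1.44, 5.55, 25.7 and 349 and a time 0 signal of 0.14, 0.43, 1.69 and 14.8. LHCSR2 had a starved signal of 0.93, 3.43, 23.1 and 253 and a time 0 signal of 0.09, 0.24, 1.67 and 13.3. In each of these models the time 0 signal was highest on the array where the starved signal was highest. NAR1.2 had time 0 signals of 0.09, 0.13, 0.18 and 2.12 and HLA3 of 0.09, 0.05, 0.09 and 0.79, while those of LCR1 were 2.33, 2.46, 2.70 and 3.69 and those of GLN3 2.73, 2.64, 2.01 and 2.02.

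**Figure D3:**
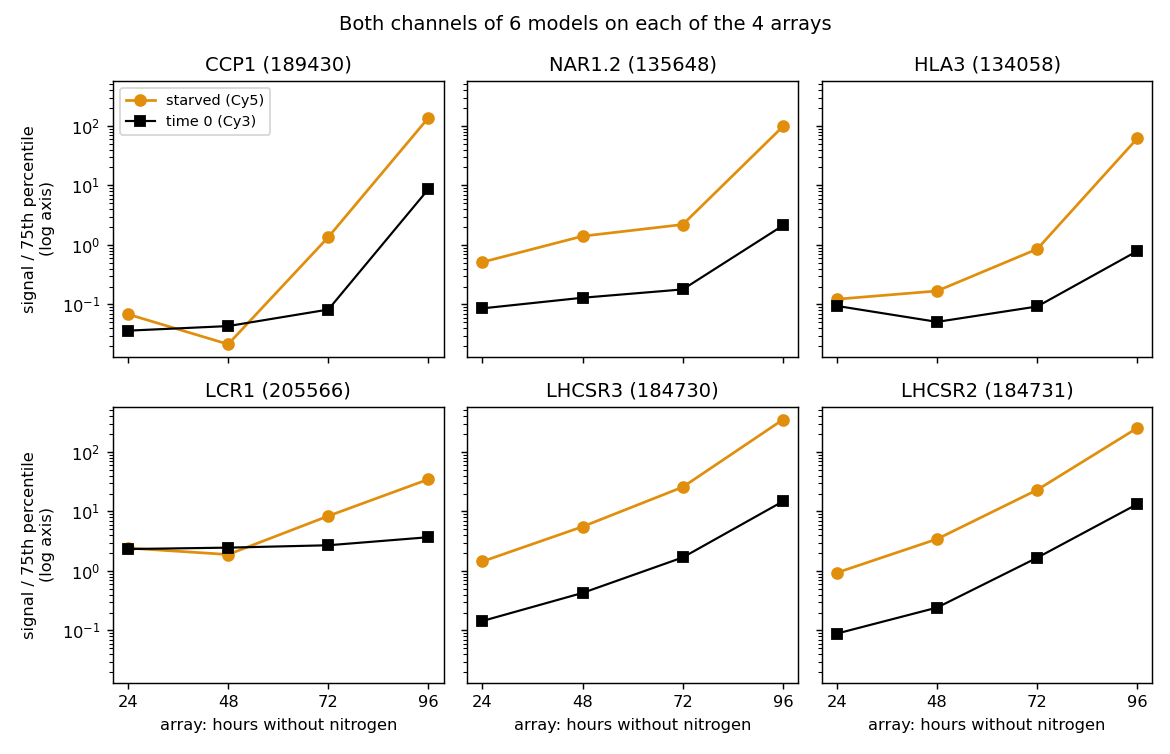
Signals of 6 models on each of the 4 arrays (x axis, hours without nitrogen), starved cells in orange and time 0 cells in black, in units of the array's 75th percentile on a log axis. In CCP1 the starved signal reached 137 and the time 0 signal 8.69 on the 96 h array, and the time 0 signal of LCR1 stayed between 2.33 and 3.69.

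Such shifts were rare. Of 6721 models with a median probe above background at time 0 on at least 1 array, the time 0 signal on the 96 h array was over 4-fold above the median of the other arrays in 9, and over 4-fold below it in 0. The same counts were 8 and 2 for the 24 h array, 2 and 2 for the 48 h array and 10 and 0 for the 72 h array. The 9 models included CCP1, LHCSR2, LHCSR3, NAR1.2 and HLA3. When the starved signal at 96 h was set against the mean time 0 signal of the other 3 arrays, an alternative chosen after seeing the data, CCP1 stood at 10.85, NAR1.2 at 9.28, LHCSR2 at 8.38, LHCSR3 at 8.31 and HLA3 at 7.07 on the log2 scale, and GLN3 at 5.55. The cause of the higher time 0 signal was not tested, and the size of the change of these 5 genes is not settled by the data. Whether the 4 Cy3 channels held the same RNA extract is not given in the sources used here.

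Models changed only at 96 h were taken as those past 2-fold at 96 h and within 0.5 of time 0 on the log2 scale on the earlier arrays. A probe without significant signal in either channel on an earlier array counted there as 0. A model could therefore pass as unchanged at a time when it was not detected, and such models were not counted apart. There were 69 higher (0.586%) and 38 lower (0.323%) models. The same rule gave 54 higher and 67 lower models for the 24 h array alone, 52 and 14 for 48 h and 72 and 42 for 72 h, so the last time did not have more models of its own than 72 h. Dim signals entered here as well, since among higher models 39 of 69 and among lower ones 15 of 38 had no probe above background in both channels, and 22 of each rested on 1 probe. In 9 higher and 5 lower models at least 2 probes were measured and all passed 2-fold.

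SLT1 (205507), a sodium/sulfate co-transporter, was the clearest of the higher ones. Its probes had Cy5 signals of 3771, 1270 and 3059 at 96 h, against Cy3 signals of 558, 338 and 376 at time 0, and it stood at 0.41, -0.11, 0.07 and 2.76 at 24, 48, 72 and 96 h. No other array had a starved signal above 650 in any of the 3 probes. Model 187146 (CHLRE_06g263550v5) stood at 0.02, 0.39, 0.30 and 1.36, and its probes at 96 h were within 0.06 of each other. Model 141975 stood at 3.52 at 96 h, but 2 of its 3 probes were dim at time 0 and its probe 1, bright in both channels, stood at 0.59, 1.04, 0.72 and 1.82. Models 178269, 181592 and 192850, at 2.15, 1.72 and 1.53, had no probe above background at time 0, and by their bounds the first was at least 1.02-fold and the third at least 1.03-fold higher. The bound of 181592 is under 1, so it has no fold. The remaining 3 of the 9 stood between 1.08 and 1.33.

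Among the lower models, 196826 stood at -2.28, with Cy5 signals of 90.8 and 91.0 against Cy3 signals of 525 and 372. Model 151536 (CHLRE_16g661950v5) stood at 0.24, 0.41, -0.23 and -1.96, and its 3 probes at 96 h were at -1.96, -1.88 and -2.05. Models 196844 and 192029 stood at -1.49 and -1.48. The bright model 145123 (CHLRE_17g710300v5) had Cy5 signals of 61830, 59056 and 171, against Cy3 signals of 180990, 153634 and 430, at a log2 ratio of -1.38. Its probes 1 and 2 share 59 bases, and probe 3, of another sequence, stood at -1.33. These 5 models had time 0 signals above background in every measured probe.

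**Figure D4:**
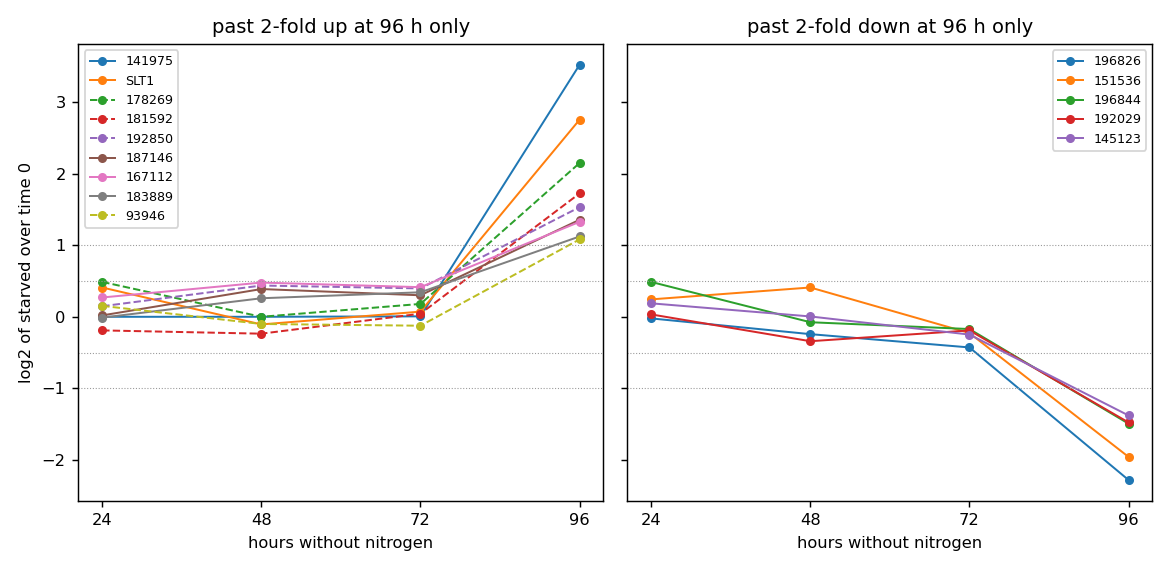
Log2 of starved over time 0 (y axis) at each time (x axis, hours without nitrogen) for the models past 2-fold at 96 h only whose measured probes all agreed, higher at left and lower at right, with dashed lines for models not above background at time 0. Among models with a probe above background at time 0 the largest values are 3.52 in 141975 and 2.76 in SLT1.

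The rule has sharp limits. Just inside it were 196844 and 178269, each with a largest earlier value of 0.49. Just outside were model 183372 (CHLRE_16g667250v5), at 0.19, -0.52, 0.14 and 2.67, and model 194220 (CHLRE_17g742100v5), at 0.41, 0.52, 0.32 and 1.53.

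The difference between 96 h and the mean of the earlier times was tested by limma, with the spread of the 3 earlier arrays standing for that of the lone 96 h array. Of 10772 models tested 0 were called, with 525 at an unadjusted p under 0.05 and a smallest adjusted p of 0.747 by limma. Without the 72 h array 24 models (0.223%) were called, 9 higher and 15 lower, on 1 residual degree of freedom, so these calls rest on which array is left out. The largest difference without that array was that of CAM2.a as listed (196881), a calmodulin-like protein, at 5.38 (adjusted p = 0.00844 by limma without the 72 h array). It had Cy5 signals of 65329, 71384 and 77614 at 96 h, against Cy3 signals of 1191, 1212 and 1804, and stood at 0.75, 0.04, 2.14 and 5.78 over time. Model 205698, annotated as an acetyltransferase, stood at -1.77, -1.57, 1.0 and 3.42, but its probe 3 stood at 0.16. Model 195242 stood at -0.22, -0.62, 1.94 and 4.33. In the other direction model 190090 (CHLRE_01g047265v5) stood at 1.77, 1.2, -1.25 and -3.46, with Cy5 signals of 1506, 1074 and 22.4 at 96 h against Cy3 signals of 16621, 10414 and 249. In these 4 models the 72 h value lay between the earlier ones and that at 96 h. Of the 24 this was not so in 206001, 184094, 193137 and 169768, for example in 169768, at -0.32, 0.43, -0.39 and 3.44.

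Histone genes, which package DNA, were mostly lower. Of 72 measured histone models 65 were past 2-fold lower and 0 higher, with medians of -1.69, -2.19, -2.19 and -2.22 at 24, 48, 72 and 96 h, and 19 of 26 members outside the nitrogen tables were lower. Histone genes are near-identical copies, so the models are not independent. HTB10 (112775), a histone H2B, had Cy5 signals of 161, 119 and 596, against Cy3 signals of 4386, 3632 and 3289, a log2 ratio of -4.77. Fewer dividing cells and less RNA per cell cannot be told apart in such cultures. The models listed as the B-type cyclins CYCB1.a (195433) and CYCB1.b (195434), which drive mitosis, stood at -0.62, -2.25, -3.23 and -4.69 and at -0.65, -2.22, -3.27 and -4.78. Their probes have identical sequences, so both report the same signal, and probe 3 was not above background.

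Flagella, the cell's motile organelles, had 29 of 42 measured members past 2-fold lower and 0 higher (median -1.51). Of 20 members absent from the nitrogen tables, 8 were lower, and after normexp and loess 17 of 42. Their medians at 24, 48, 72 and 96 h were -1.71, -1.57, -0.23 and -1.51, so the 72 h array stood apart. The main glycoprotein of the flagellar membrane, listed as FMG1-B (158519), was 38.1-fold lower, with Cy5 signals of 737, 112 and 120 against Cy3 signals of 12954, 4273 and 7086.

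Cell wall genes stood lower at each later time, at medians of -0.65, -1.45, -2.20 and -3.39, with 7 of 11 past 2-fold lower and 2 higher at 96 h, and 9 of the 11 are in the nitrogen tables. VSP3 (195803), a wall protein, stood at -2.0, -2.82, -4.66 and -4.95. A second one, listed as VSP4 (195824), stood at -5.86, with Cy5 signals of 906, 934 and 321 against Cy3 signals of 78104, 53951 and 18614. Pherophorins, hydroxyproline-rich wall proteins, shared this course in part. Listed as PHC15, 148333 stood at -1.37, -2.26, -3.14 and -4.0 and PHC1 (196399) at -0.35, -1.45, -2.27 and -3.39. The probes of 196399 disagreed at 96 h, at -3.39, -0.85 and -3.69, and this model also carries the symbol PHC15. PHC13 (196029) stood at 1.44, 1.41, 1.19 and -1.08, the only model past 2-fold higher on all earlier arrays and lower in every probe at 96 h. The fasciclin-like protein FAS3 (36709), by contrast, stood at 4.87.

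**Figure D5:**
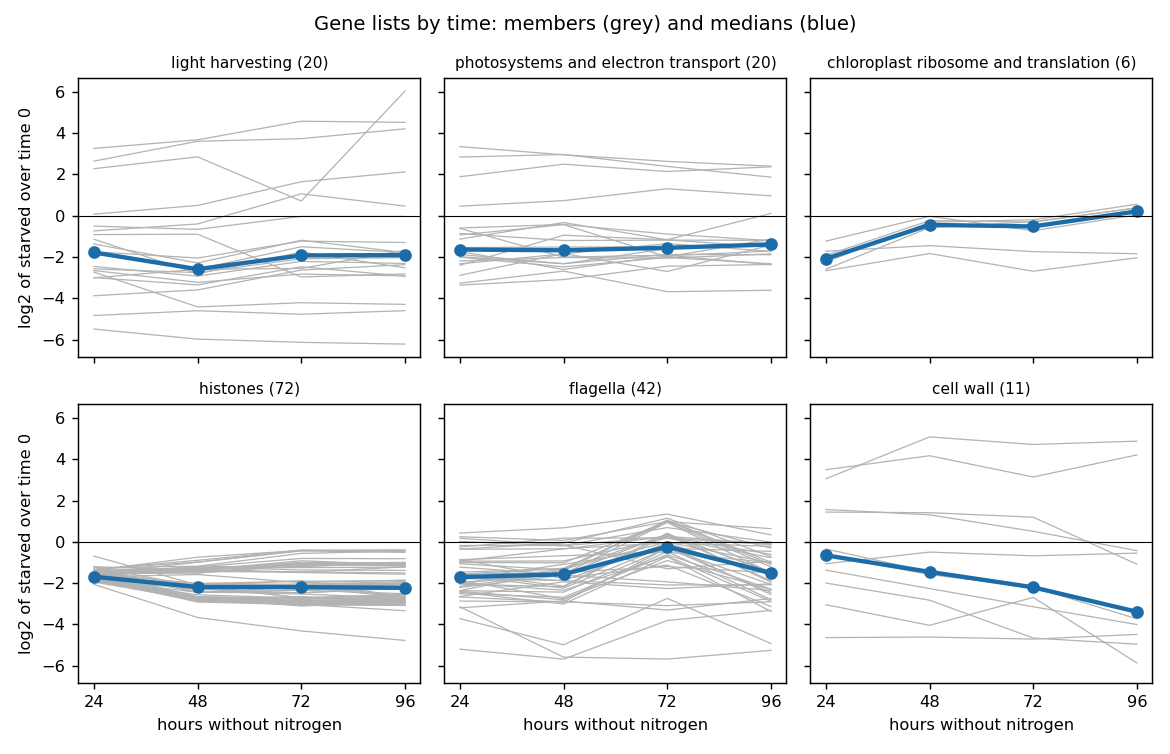
Log2 of starved over time 0 (y axis) at each time (x axis, hours without nitrogen) for 6 gene lists, members in grey and the median in blue. The chloroplast ribosome median moved to 0.21 at 96 h, while the cell wall median reached -3.39.

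A few lists that were low at 24 h were near time 0 at 96 h. The 6 chloroplast ribosome and translation models had medians of -2.08, -0.44, -0.51 and 0.21, with 6 past 2-fold lower at 24 h and 2 at 96 h, CSP41a (205573) at -2.03 and CSP41b (135322) at -1.84, both RNA-binding proteins. The ribosomal proteins PRPL29 (187195) and PRPL31 (195624) stood at 0.38 and 0.56. The 6 models of chlorophyll and tetrapyrrole synthesis had medians of -2.30, -0.25, -0.38 and 0.34. GSA (138524), an early enzyme of the pathway, stood at -2.65, -0.30, -0.69 and 0.33, GUN4 (205773), which stimulates magnesium chelatase, at 1.25 at 96 h, and the cyclase subunit listed as CRD1 (183476) at -2.30. The 4 cytosolic ribosome models took another course, with medians of 0.06, 1.09, 1.08 and 1.55, and 3 of them were higher at 96 h. After normexp and loess their median at 96 h was 0.93. By its own tests and limits, the paper reports no ribosome-related gene as up-regulated.

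In the lipid list 4 of 11 were higher and 2 lower (median 0.24), against 14.5% and 11.1% over all models. Of these 11, 7 are in the nitrogen tables, and of the other 4 models 0 were higher and 0 lower. In the starch list 0 of 4 passed 2-fold. GPD1 (CHLRE_01g053000v5), which makes glycerol-3-phosphate for glycerolipids, was 15.5-fold higher, with Cy5 signals of 178696, 75780 and 12166 against Cy3 signals of 5660, 4903 and 1042. A second such enzyme, listed as GPD4 (96789), was not well above background at time 0 in any probe and was at least 3.78-fold higher. In acetate and central carbon metabolism 2 of 9 were higher and 1 lower. Of 7 models of gametogenesis and mating 4 were higher and 3 lower. Of these, the one listed as NSG13 (CHLRE_07g328800v5) stood at 4.99 from 2 probes dim at time 0, while probe 3, bright in both channels, stood at 1.12. That listed as the agglutinin SAD1 (142415) stood at 3.50, and the zygote-specific protein listed as ZYS3-1 (24453) was 45.0-fold lower, with Cy5 signals of 185, 163 and 548 against Cy3 signals of 8322, 9796 and 6418.

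Of the lowest models 5 had no gene name. Models 146308, 188630 and 166317 were below -5.4 on all 4 arrays. The probes of 146308, annotated as a farnesyl cysteine-carboxyl methyltransferase, disagreed at 96 h, at -5.80, -5.96 and -1.15. Probe 3 of 188630 stood at -3.70. Model 186495 stood at -5.78, -5.94, -2.87 and -6.17, with the 72 h array apart. Model 182218 stood at -1.25, -2.94, -4.55 and -5.83, lower at each time than at the one before.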

How the data were processed

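Total RNA was labelled by the authors with Cy3 (time 0) or Cy5 (starved) and read with Agilent Feature Extraction 10.7.3.1. The deposited intensity values had been background-subtracted with spatial detrending and dye-normalized (linear and lowess), and spots near background carried surrogate values. The deposited log10 ratio was processed Cy5 over processed Cy3, and the deposited flags (background, saturation) were used as given. The authors' value table held the same log10 ratios. Depth has no equivalent here, and the number of arrays limits the precision.

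Ratios were turned to log2 and taken as the median over measured probes of a model. No outlier spot was among them. The models, lists and rules were chosen with earlier results of these data known. The 96 h array was fitted against the earlier times by limma 3.58.1 in R 4.3.3 (Benjamini-Hochberg adjustment, a call needing 0.05 and 2-fold). The fit was first run on simulated data whose spread was set well below that between the earlier arrays. That run cannot show what could be called at the real spread. Python 3.11.15, numpy 2.4.6 and pandas 2.3.3 served otherwise. Named genes were the largest changes with agreeing probes, those at 96 h only, the ends of each list and models from the study's account. NAR1.3, one AOC5 model, one LHCA1 model, PETO, HLA3, LCI1, LCR1, LCI15, LCID, LCI6 (184094), CAH1, PHC15, PHC1, PHC13, CYCB1.a, CYCB1.b, 195242, 190090, 205698, 183372, 194220, 188890 and 169768 were chosen after their values were seen. Loci of 12302 models came from RefSeq, matched by old locus tag, and 495 models had a symbol in the study's tables. The headings of the study's nitrogen and sulfur tables seemed exchanged, and which one to treat as the nitrogen table was decided after seeing these data.

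Alternatives were normexp (offset 50) with loess (span 0.3, 4 iterations), median centring, no filter, both channels above background, surrogates or saturated probes left out, single probes, the mean of probes, a 4-fold limit, each array left out and, added after seeing the data, the time 0 signal of the other 3 arrays. Lowess by the study's own software and its tests were not used here.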

Additional observations from a re-analysis of the deposited data

Results flagged for a closer look

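PHC13 (196029) stood at -1.08 at 96 h after 1.44, 1.41 and 1.19 at 24, 48 and 72 h, so the last time moved opposite to the earlier ones in all 3 probes. By limma the difference from the earlier times was not called (adjusted p = 0.747), and without the 72 h array it was (adjusted p = 0.0492 by limma).

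Probes outside the numbered sets also carried signal. Probes spotted 7 times and bright in both channels averaged -1.52 (SD 0.06) for model 132678, listed as ATPD, -2.28 (SD 0.07) for 152892, listed as FDH1, and -1.33 (SD 0.06) for 195951, whose numbered probes stood at -0.39. Custom probes 1 to 6 of one set, without a model, stood at -2.27, -2.25, -2.43, -4.75, -4.68 and -4.83. In a second set probes 1 to 3 stood at -0.57, -0.60 and -0.70 and probes 7 to 9 at 0.14, 0.01 and 0.12, while probes 4 to 6, at 0.62, 1.94 and 1.84, were not above background in both channels. Probes 7 to 9 of the first set were not either. Each group holds 1 array, so no sample could be checked against others of its group.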

How the results depend on the processing

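The count of higher models was 485 with normexp and loess, 868 with both channels above background, 591 where at least 2 probes all passed and 318 at 4-fold; for lower models it was 858 with normexp and loess, 657 where all probes passed and 478 at 4-fold. With the time 0 signal of the other 3 arrays, chosen after seeing the data, there were 2153 higher and 1193 lower models. Models past 2-fold at 96 h only numbered 13 higher and 7 lower with normexp and loess, 16 higher with both channels, 38 higher without surrogate signals, 434 higher and 207 lower with a limit of 1 at the earlier times, and 187 higher and 18 lower with the time 0 signal of the other arrays. Leaving out the 24, 48 or 72 h array gave 113, 150 and 129 higher and 50, 69 and 104 lower models. The limma comparison with earlier times called 24 models without the 72 h array and 0 without the 24 or 48 h array. In the lists, higher acetate models numbered 1 with normexp and loess and 1 with both channels, lower antioxidant models 0 with normexp and loess and 2 with centring, lower chlorophyll models 2 with probes 1 and 2 only, lower flagella models 17 with normexp and loess, and higher scavenging models 4 with both channels. The other 101 of 108 list counts stayed within 1.5 times. Over 92 named models and 797 values, 632 moved by less than the SD of the probes and 164 by more. Of models past 2-fold, 1 value changed sign (181592, -0.11 with the time 0 signal of the other arrays). Sign changes of models within 2-fold were not counted, for example in NAR1.3, at -0.46 and, from probe 2 alone, at 0.18. The cause was not tested. Low signal limits the ratios, since 851 higher and 11 lower models had a bound under 2-fold. No paired analysis was possible because each time is 1 array.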

Other observations

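Heat shock and chaperone models, which no comparison above covers, were lower in 4 of 11 cases and higher in 1 at 96 h (median -0.63). HSP22D (189779), a small heat shock protein, stood at 1.33, -0.17, -1.67 and -3.06 at 24, 48, 72 and 96 h. Its measured probes had Cy5 signals of 42.1 and 34.9 at 96 h, against Cy3 signals of 323 and 318 at time 0, so the last values were at the edge of detection in starved cells. The model listed as chaperonin CPN10 (55098) stood at -2.67, and CPN60C (115081) at -1.04, -1.27, -0.47 and 0.43. Among 7 antioxidant models 2 are listed as the manganese superoxide dismutase MSD3, and they stood apart, 196654 at 1.93 and 149279 at -2.48.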
